A study of Mus musculus with 10 samples.

Results

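Connexin transcripts were measured in the cochlea of aged mice by RNA-seq. The genes were Gjb2, Gjb6, Gjc3, Gjb1, Gja1, Gjd2, Gjc1, Gja4 and Gja5, chosen by name, and they are 9 of the 54532 genes counted. All 10 mice carried mtKeima, a reporter of mitochondria inside lysosomes, and all were 12 months old when the cochlea was taken. NR-treated mice (5) had drunk nicotinamide riboside (NR), a precursor of NAD+, at 7 mg/ml (24 mM) in their water from 2 months of age, for 10 months. Non-treated mice (5, labelled Vehicle) had drunk regular water, and 1 library was made from each mouse. The sample labels give the sex as female and the methods of the study describe males. In CPM, read counts divided by library size and scaled for library composition, the Y-linked gene Ddx3y lay between 64.5 and 85.0 and the female-expressed RNA Xist between 0.0882 and 0.405, so all 10 libraries went against the label. The total was 17060379 to 24419230 reads per mouse. Non-treated mice 3 and 4 stood apart in genes of the cochlear epithelium and lateral wall, and NR-treated mice 3 and 5 in skeletal muscle genes, so the results that rest on them are given with and without them. Each p-value sets the difference between the groups against the variation between individual mice.

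Connexins are the subunits of gap junctions, channels that let ions and small metabolites pass between neighbouring cells, and each cell type uses its own set. In the cochlea, Cx26 (Gjb2) and Cx30 (Gjb6) join the supporting cells of the sensory epithelium and the fibrocytes of the lateral wall in networks that recycle potassium, and loss of GJB2 is a common cause of inherited deafness. Glia of the auditory nerve use Cx29 (Gjc3) and Cx32 (Gjb1), astrocytes and many other cells use Cx43 (Gja1), neurons use Cx36 (Gjd2) for electrical synapses, vessel wall cells use Cx45 (Gjc1), and the endothelium of arteries uses Cx37 (Gja4) and Cx40 (Gja5).

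The sequence around the start site is shown for the epithelial and the arterial pair, the genes on which the results below turn. Each window of 300 bases holds 250 before and 50 after the gene's start in RefSeq (GRCm38.p6), 5′ to 3′ on the gene's strand, and capitals mark matches to the GC box GGGCGG on either strand. Gjb2 is on the minus strand at chr14:57104653-57104952, Gjb6 on the minus strand at chr14:57133562-57133861, Gja4 on the minus strand at chr4:127313990-127314289 and Gja5 on the plus strand at chr3:97032152-97032451. The Gja5 gene as counted begins upstream of this window, at chr3:96904693, so the window lies inside the counted gene.
Gjb2: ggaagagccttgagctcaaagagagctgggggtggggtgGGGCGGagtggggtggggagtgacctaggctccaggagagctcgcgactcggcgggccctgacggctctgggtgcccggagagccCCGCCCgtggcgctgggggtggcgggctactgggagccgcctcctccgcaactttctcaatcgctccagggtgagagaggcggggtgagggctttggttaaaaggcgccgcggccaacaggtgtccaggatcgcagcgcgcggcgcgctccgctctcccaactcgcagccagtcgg
Gjb6: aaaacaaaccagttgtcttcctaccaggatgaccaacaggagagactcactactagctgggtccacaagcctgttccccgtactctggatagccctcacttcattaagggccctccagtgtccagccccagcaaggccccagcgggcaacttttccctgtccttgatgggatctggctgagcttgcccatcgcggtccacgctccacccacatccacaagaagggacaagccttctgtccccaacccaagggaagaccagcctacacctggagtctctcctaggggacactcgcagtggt
Gja4: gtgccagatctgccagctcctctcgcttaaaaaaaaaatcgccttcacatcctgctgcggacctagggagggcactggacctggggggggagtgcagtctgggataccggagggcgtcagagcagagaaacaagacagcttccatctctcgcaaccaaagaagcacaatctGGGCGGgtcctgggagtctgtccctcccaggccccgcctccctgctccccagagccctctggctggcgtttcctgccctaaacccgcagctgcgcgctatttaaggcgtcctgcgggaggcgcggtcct
Gja5: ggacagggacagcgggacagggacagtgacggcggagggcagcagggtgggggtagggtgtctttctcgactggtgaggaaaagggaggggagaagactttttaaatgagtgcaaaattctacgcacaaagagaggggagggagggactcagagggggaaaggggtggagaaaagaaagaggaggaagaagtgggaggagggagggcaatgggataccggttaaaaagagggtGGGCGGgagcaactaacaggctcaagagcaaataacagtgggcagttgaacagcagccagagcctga
Gjb2 and Gjb6 are neighbours, 18600 bp apart and transcribed in the same direction, yet their windows differ. That of Gjb2 was 70% G and C with 2 GC boxes, and that of Gjb6 57.3% with none. The Gja4 and Gja5 windows held 1 GC box each. The GC box occurred in 35.7% of the 32851 mouse windows of this length, so its presence is common. No window of these 4 genes held TATAAA (13.6% of all windows) or CCAAT (37.4%). A match is only a run of letters and no binding was measured. RefSeq windows were found for 8 of the 9 genes.

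In the mouse genome (GRCm38), Gjb2 (ENSMUSG00000046352) lies at chr14:57098600-57104702 and Gjb6 (ENSMUSG00000040055) at chr14:57123303-57133611. The glial genes are Gjc3 (ENSMUSG00000056966) at chr5:137953461-137963098 and the X-linked Gjb1 (ENSMUSG00000047797) at chrX:101376378-101385629. Gja1 (ENSMUSG00000050953) lies at chr10:56377330-56402513, Gjd2 (ENSMUSG00000068615) at chr2:114009601-114013619 and Gjc1 (ENSMUSG00000034520) at chr11:102799579-102819700. The arterial genes are Gja4 (ENSMUSG00000050234) at chr4:127311421-127314039 and Gja5 (ENSMUSG00000057123) at chr3:96904693-97077416. Counts cover all exons of a gene, untranslated parts included.

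Per length, the epithelial pair dominated the connexin transcripts of the cochlea. In CPM divided by gene length in kilobases (RPKM, over all 10 mice), Gjb2 had a level of 282 ± 94.9 (SD, n = 10) and Gjb6 of 206 ± 51.6. Together they made up 87.5% to 94.6% of the summed RPKM of the 9 genes in every mouse. Gjb2 was above Gjb6 in 10 of 10 mice, by 1.23 to 1.53 times. The glial connexins followed at 17.4 ± 2.73 RPKM for Gjb1 and 16.5 ± 1.01 RPKM for Gjc3, an 11.8-fold step below Gjb6. Gjb1 was the higher of these in 7 of 10 mice, and their ranges overlapped. Gja4 came next with 4.16 ± 0.903 RPKM, then Gja1 with 4.04 ± 0.654 RPKM and Gjd2 with 3.24 ± 0.666 RPKM. These 3 levels overlapped, with Gja4 above Gja1 in 6 of 10 mice and Gja1 above Gjd2 in 8 of 10. Gjc1 lay below all of them at 1.52 ± 0.111 RPKM, and Gja5 was lowest at 0.300 ± 0.178 RPKM. The lengths are those of all annotated exons of a gene, 5746 bp for Gja5 and 10257 bp for Gja1, so a gene mostly read from a short transcript has an RPKM below its true level.

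**Figure D1:**
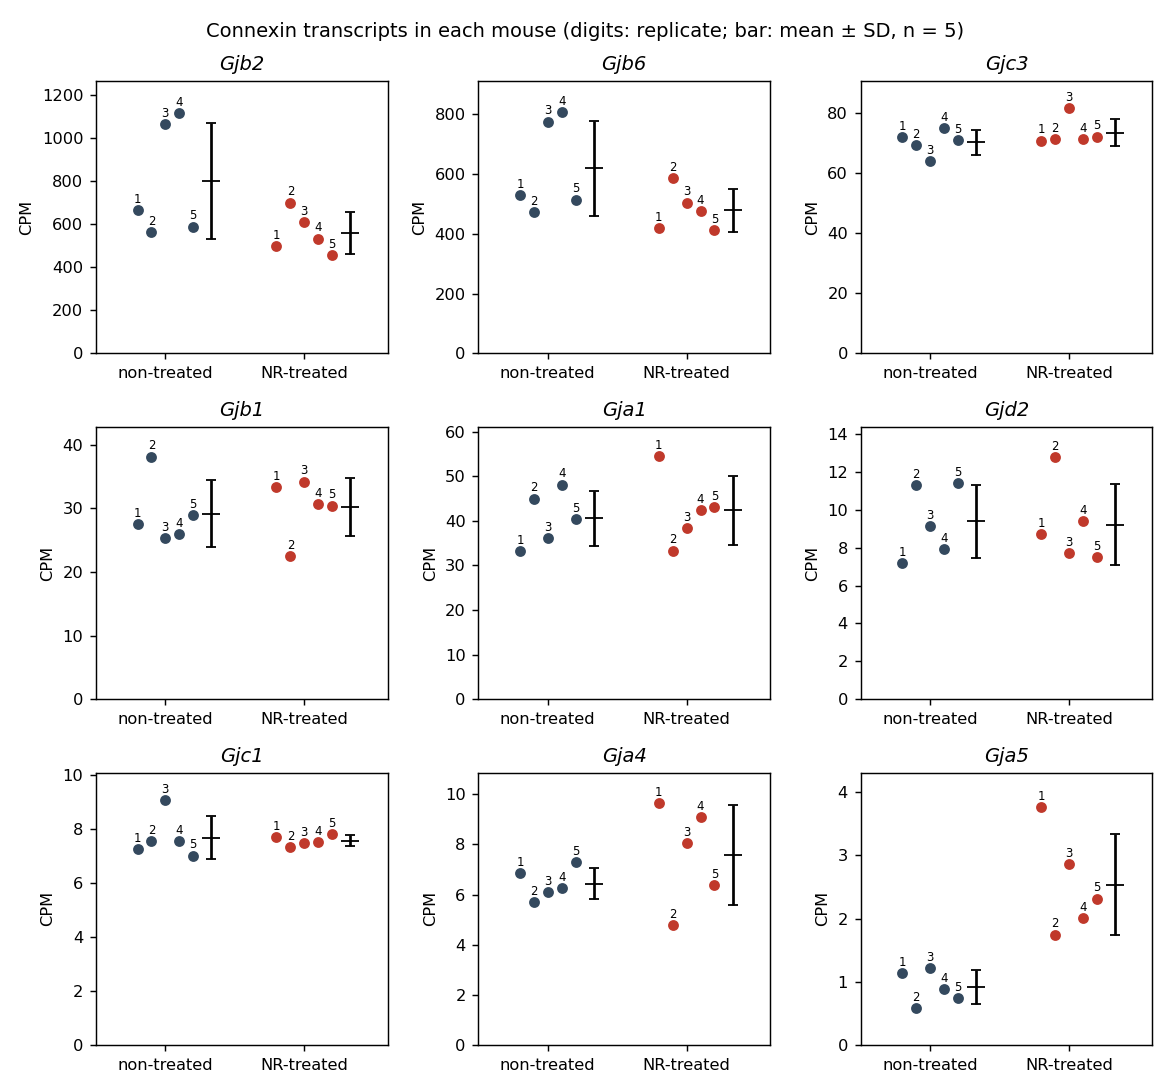
Level of each connexin gene in CPM (vertical axes, starting at 0) in the 5 non-treated (dark) and 5 NR-treated mice (red); digits are replicate numbers and bars are the mean ± SD. Non-treated mice 3 and 4 stand above all others for Gjb2 and Gjb6, and every NR-treated mouse lies above every non-treated mouse for Gja5.

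The comparison of NR-treated with non-treated mice asks whether long-term NR altered cochlear transcripts. Of all 18329 genes tested, 0 passed an adjusted p of 0.05 in edgeR (0%), 1780 had an unadjusted p under 0.05 (9.71%) and DESeq2 called 102 of 19633 at an adjusted p of 0.05 (0.52%). None of the 9 connexins passed the adjusted threshold in edgeR. At the unadjusted p of 0.05, which the study also used, 3 of the 9 connexins were called, beside the 9.71% of all genes: Gja5 was higher, and Gjb2 and Gjb6 were lower, in NR-treated mice. The other 6 connexins differed by at most 0.24 on the log2 scale. In whole tissue, fewer cells of a type and less RNA per cell cannot be told apart.

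**Figure D2:**
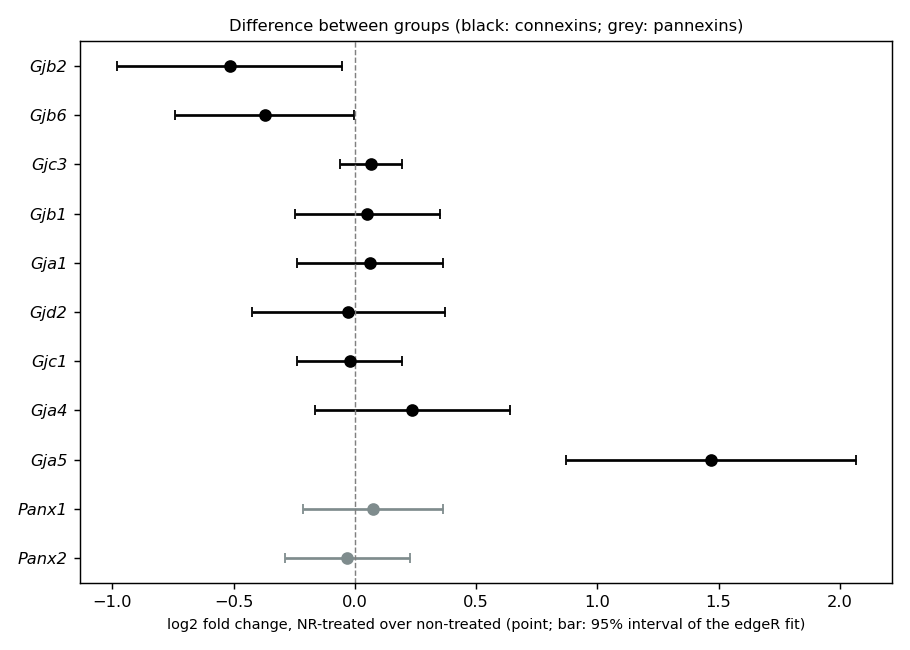
Log2 fold change of NR-treated over non-treated mice (horizontal axis) with its 95% interval from the edgeR fit, for the 9 connexins (black) and for Panx1 and Panx2 (grey). The interval of Gja5 runs from 0.87 to 2.07 and lies to the right of all the others. Those of Gjb2 (-0.98 to -0.05) and Gjb6 (-0.74 to -0.004) lie below 0, and those of the remaining genes include 0.

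Gja5, the Cx40 of arterial endothelium, showed the largest difference of the 9. Read counts were 78, 39, 66, 46 and 40 in NR-treated mice 1 to 5 and 23, 13, 30, 20 and 16 in non-treated mice 1 to 5. On the CPM scale, these were 3.76, 1.74, 2.86, 2.01 and 2.32 against 1.14, 0.584, 1.21, 0.882 and 0.743. The lowest NR-treated mouse lay above the highest non-treated mouse, which was so for 141 of all tested genes (0.769%) in this direction. Of the 9 connexins, only Gja5 had groups that did not overlap, beside 1.65% of all tested genes in either direction, and 0 of the 9 had all NR-treated mice below, beside 0.878% of all genes. The means were 2.54 ± 0.798 CPM and 0.913 ± 0.265 CPM (SD, n = 5 each), a ratio of 2.78.

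The log2 fold change of Gja5 was 1.47 with an SE of 0.27 (95% interval 0.87 to 2.07). Its unadjusted edgeR p was 2.17e-04, the 11th smallest of 18329, and its adjusted p was 0.306. DESeq2 gave the same size, 1.47, with an adjusted p of 9.45e-04, so the call depends on the tool. A two-sided exact permutation test of the mean CPM gave p = 0.00794, the smallest that 5 mice against 5 allow. The log2 fold change stayed between 1.29 and 1.61 when each mouse was left out in turn. Reads that fall on 2 overlapping genes could blur a gene this low: 165 bases of its exons (2.87%) are shared with Gpr89 on the opposite strand, whose own log2 fold change was -0.07 with an SE of 0.07. Counting did not use strand, as far as the default settings named in the methods go.

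Gja4, the Cx37 that arterial endothelium also uses, had the same direction and a much smaller difference. It measured 9.64, 4.79, 8.05, 9.08 and 6.37 CPM in NR-treated mice and 6.85, 5.70, 6.11, 6.26 and 7.29 CPM in non-treated mice. NR-treated mice 1, 3 and 4 lay above all non-treated mice and NR-treated mouse 2 lay below all of them. The means were 7.58 ± 2.00 and 6.44 ± 0.628 CPM (SD, n = 5 each). The log2 fold change was 0.24 (SE 0.18, 95% interval -0.17 to 0.64, adjusted edgeR p = 0.685, exact permutation p = 0.262). Leaving out single mice gave 0.14 to 0.37. Only the fit without NR-treated mouse 2 (0.37), 1 of 10, passed the unadjusted threshold. In that fit 2440 of all tested genes passed, beside 1780 with all mice.

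The balance within the arterial pair differed from mouse to mouse. The ratio of Gja5 to Gja4 (CPM) was 0.221 to 0.390 with NR and 0.102 to 0.199 without, and the groups did not overlap. The groups of Gja5 alone did not overlap either, so the ratio is not a separate result. It rests on 13 to 78 Gja5 reads per mouse. The closest mice were NR-treated mouse 4 (0.221) and non-treated mouse 3 (0.199). How often ratios of other genes separate the groups was not counted. Per length (RPKM), the Gja4 level was 8.74 to 15.4 times that of Gja5 with NR and 17.2 to 33.5 times without.

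Genes that mark arterial endothelium were also counted, from a list chosen, like the other lists, with earlier results of these data known. Of 12 such genes, all tested, 5 were higher at an unadjusted p under 0.05 and 0 were lower, beside 4.83% and 4.88% of all genes, and their median log2 fold change was 0.22, beside -0.01 over all tested genes. The 5, named after their values were seen, were Sema3g (24.2 ± 5.77 against 15.5 ± 2.69 CPM), a secreted semaphorin, Dll4 (7.34 ± 0.959 against 5.30 ± 0.792 CPM), the Notch ligand of arteries, the kinase Bmx (7.78 ± 1.39 against 5.61 ± 0.885 CPM), the Notch target Hey1 (29.6 ± 2.91 against 25.3 ± 2.38 CPM) and Stmn2 (159 ± 23.1 against 113 ± 29.1 CPM), which neurons also make in quantity. None passed an adjusted p of 0.05. Mgp, the most abundant of the list, had 215 ± 36.9 against 209 ± 20.5 CPM, and Efnb2, the ephrin of arterial endothelium, had 80.6 ± 6.53 against 90.9 ± 10.3 CPM (log2 fold change -0.17, SE 0.08). The summed level of the list was 522 to 687 CPM in the NR-treated group and 527 to 577 CPM in the non-treated group. Mgp and Stmn2, the most abundant genes, weigh most in this sum, so it says little of the rarer genes. Without non-treated mice 3 and 4, 4 of the 12 were higher with a median of 0.27. Leaving out single mice gave 4 to 7 higher, and 1 lower without NR-treated mouse 2 or non-treated mouse 1. Without NR-treated mice 3 and 5 and non-treated mouse 1, an exclusion chosen after seeing the data, 3 of the 12 were higher with a median of 0.14.

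Genes of endothelium in general were counted in the same way. Of 14, 5 were higher and 0 lower at an unadjusted p under 0.05, with a median of 0.12: Egfl7 (52.5 ± 2.63 against 43.1 ± 2.62 CPM, no overlap), Sox18, Erg, Pecam1 and Tie1, again named after their values were seen. The most abundant, Vwf (76.2 ± 14.7 against 77.4 ± 26.0 CPM) and Flt1 (57.2 ± 5.62 against 57.0 ± 7.02 CPM), had log2 fold changes of -0.02 and 0.01. Their sum lay between 479 and 549 CPM in NR-treated mice and between 408 and 553 CPM in non-treated mice. Without non-treated mice 3 and 4, 2 of the 14 were higher, and without NR-treated mice 3 and 5 and non-treated mouse 1, 7 of the 14 were higher with a median of 0.25. Of 6 venous genes, 0 were higher and 1, Ephb4, was lower (62.9 ± 4.94 against 70.6 ± 6.65 CPM, a call lost with DESeq2 size factors), with a median of -0.03. Leaving out single mice, 0 to 1 venous genes were called in each direction. Of 12 genes of smooth muscle and pericytes, 1 was higher, the muscle filament gene Des, and 1 lower, the pericyte gene Rgs5 (119 ± 13.5 against 135 ± 3.66 CPM). Des lay between 6.79 and 74.1 CPM in NR-treated and between 6.70 and 13.6 CPM in non-treated mice. On this list 0 genes were higher without NR-treated mouse 3 or 5, without non-treated mouse 4 and under the replicate block, and 0 were lower without NR-treated mouse 1 or 3 or non-treated mouse 2 or 4. The difference of Gja5 was larger than that of every gene on the endothelial, arterial and venous lists.

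Markers of fat and skeletal muscle were counted as well. Of 9 tested adipocyte genes of 10 listed, 7 were higher at an unadjusted p under 0.05, with a median of 1.80 on the log2 scale, and the list's mean log2 CPM was 3.10 to 4.28 in NR-treated and 1.20 to 2.72 in non-treated mice. Their summed level was 193 to 386 CPM and 138 to 195 CPM, and Pnpla2 and Fabp4 were the most abundant. Of 8 tested skeletal muscle genes of 10 listed, 6 were higher, with a median of 3.38 and a summed level of 12.3 to 852 CPM against 9.98 to 75.1 CPM, highest in NR-treated mice 3 and 5 and, among non-treated mice, in mouse 1. NR-treated mouse 1, at a mean log2 CPM of 0.37, was below non-treated mice 1 and 2 and level with mouse 3, and under the replicate block 0 of the 8 muscle genes were higher. Without NR-treated mice 3 and 5 and non-treated mouse 1, 5 of the 8 muscle genes were higher with a median of 1.11. Leaving out those 3 mice gave a Gja5 log2 fold change of 1.55 (SE 0.36). The part of fat in the Gja5 difference was not tested.

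**Figure D3:**
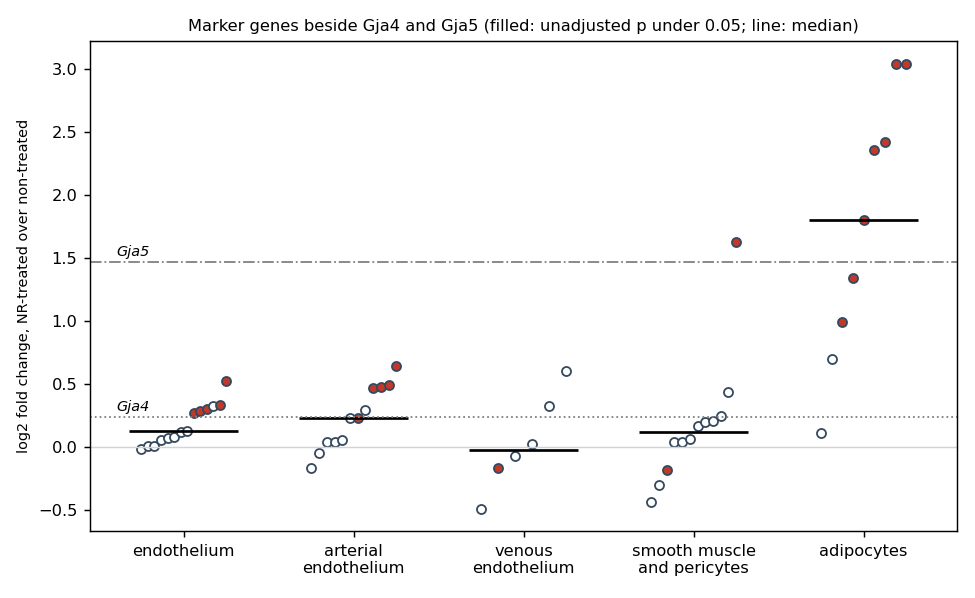
Log2 fold change (vertical axis) of each tested gene of 5 marker lists, each circle a gene, filled where the unadjusted edgeR p was under 0.05, with a line at the list's median. Dashed and dotted lines mark Gja5 at 1.47 and Gja4 at 0.24; no endothelial, arterial or venous gene reaches the Gja5 line, and 5 adipocyte genes and Des lie above it.

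Gjb2, the Cx26 of the epithelial and connective tissue networks, was lower on average in NR-treated mice. It measured 497, 699, 608, 532 and 456 CPM in NR-treated mice 1 to 5 and 666, 563, 1062, 1115 and 588 CPM in non-treated mice 1 to 5. Non-treated mice 3 and 4 stood far above the other 8, and the remaining non-treated mice lay within the NR-treated range. The means were 558 ± 96.4 and 799 ± 268 CPM. The log2 fold change was -0.52 (SE 0.21, 95% interval -0.98 to -0.05), with an edgeR p of 0.0324 unadjusted and 0.479 adjusted and an exact permutation p of 0.111.

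Gjb6, the Cx30 that is built into the same channels, ran alongside. It measured 418, 586, 505, 475 and 412 CPM in NR-treated mice and 529, 473, 776, 809 and 515 CPM in non-treated mice, again with non-treated mice 3 and 4 on top. The means were 479 ± 71.3 and 620 ± 159 CPM. The log2 fold change was -0.37 (SE 0.17, 95% interval -0.74 to -0.00), with an edgeR p of 0.0482 unadjusted and 0.511 adjusted and an exact permutation p of 0.127. The unadjusted call of Gjb6 was lost with DESeq2 size factors, upper quartile scaling, the CPM filter and the replicate block.

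The lower means rested on those non-treated mice. Without mice 3 and 4 of the non-treated group, Gjb2 had a log2 fold change of -0.11 (SE 0.14) and Gjb6 of -0.07 (SE 0.12). Gja5 was then the only 1 of the 9 connexins called at an unadjusted p of 0.05, beside 9.69% of all genes. With single mice left out, Gjb2 lay between -0.61 and -0.36 and kept an unadjusted p under 0.05 in 5 of 10 fits, losing it without NR-treated mouse 1, 4 or 5 or non-treated mouse 3 or 4. Gjb6 lay between -0.45 and -0.26 and kept it in 4 of 10, losing it also without NR-treated mouse 3. Of all tested genes, 2108 (11.5%) had non-treated mice 3 and 4 as the highest of the 10.

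**Figure D4:**
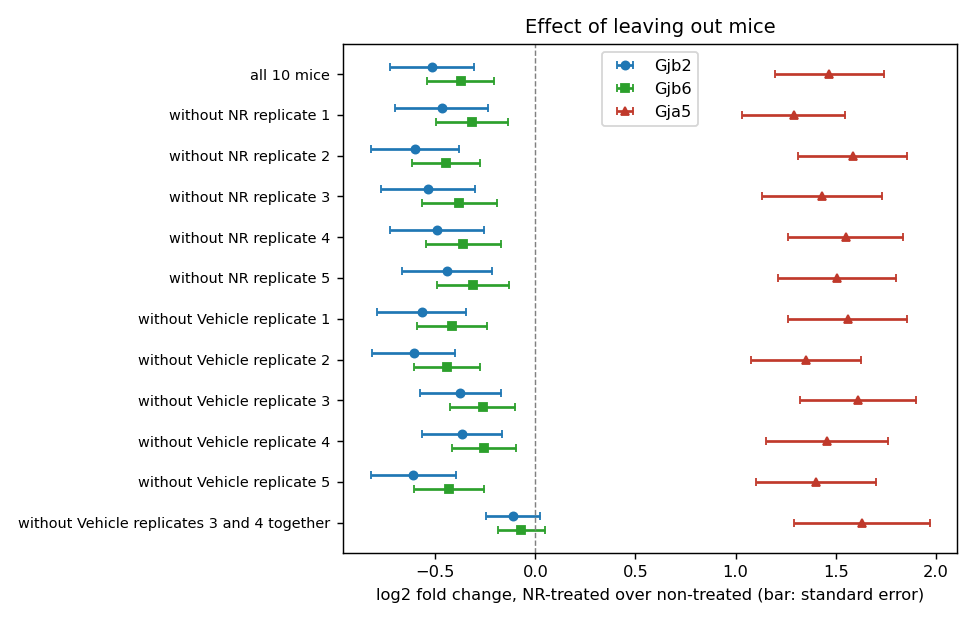
Log2 fold change of NR-treated over non-treated mice (horizontal axis) for Gjb2, Gjb6 and Gja5 with all 10 mice, with each mouse left out, and with non-treated (Vehicle) replicates 3 and 4 left out together; bars are standard errors. Gja5 stays between 1.29 and 1.63, and Gjb2 and Gjb6 move to -0.11 and -0.07 in the lowest row.

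Both genes kept nearly the same ratio in each mouse. The SD of their log2 ratio over the 10 mice was 0.11, the smallest of the 36 pairs among the 9 genes, while Gjb2 alone had an SD of 0.43. The Gja4 and Gja5 pair had 0.71, but this value is not a like comparison. It spans both groups and so includes the group difference of Gja5, which had only 13 to 78 reads per mouse. The Gjb2 to Gjb6 ratio (RPKM) was 1.23 to 1.34 in the NR-treated group and 1.27 to 1.53 in the non-treated group, and the highest values, 1.52 and 1.53, belonged to non-treated mice 3 and 4, where Gjb2 exceeded its level in the other mice by more than Gjb6 did. Among 13351 genes of at least 5 CPM, those whose ratio to Gjb2 varied least were Gfi1, a transcription factor of hair cells (SD 0.11), Gjb6, Fam160a1 (0.12), Fbxo2, an ubiquitin ligase subunit (0.14), and Clu, which encodes clusterin (0.14). All values come from the same 10 libraries.

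Markers of the cell types that carry Cx26 and Cx30 had the same high mice. Of 14 supporting cell genes, all tested, 6 were lower and 0 higher at an unadjusted p under 0.05, with a median of -0.24 on the log2 scale, and Otog and Ceacam16, which encode proteins of the tectorial membrane, were the most abundant (174 ± 43.9 against 282 ± 124 CPM for Otog). Averaged over these genes, log2 CPM was 5.80 and 5.73 in non-treated mice 3 and 4 and 4.73 to 5.33 in the other 8. Without those mice, 0 of the 14 were lower, 4 were higher and the median was -0.01. With single mice left out, the number lower was 0 to 6, and it was 2 or fewer without NR-treated mouse 1, 3 or 5 or non-treated mouse 3 or 4. Of 10 fibrocyte and limbus genes, 2 were lower with a median of -0.34. Coch, the most abundant, had 2612 ± 571 against 2981 ± 799 CPM. The list was at 8.14 and 7.98 in non-treated mice 3 and 4 and at 7.24 to 7.79 in the other 8. Without those 2 non-treated mice, 1 of the 10 was still lower and the median was -0.00. Leaving out single mice gave 2 to 3 lower. The summed levels were 749 to 1114 CPM in NR-treated and 822 to 1714 CPM in non-treated mice for supporting cells, and 4269 to 6684 and 4844 to 8594 CPM for fibrocytes and limbus. Of 10 hair cell genes, which carry no gap junctions, 1, Gfi1, was lower, with a median of -0.39 that became 0.11 without the same mice. Leaving out single mice, 0 to 3 hair cell genes were lower, and 0 without NR-treated mouse 1 or 5 or non-treated mouse 3 or 4. The part of tissue composition in the Gjb2 and Gjb6 values was not tested.

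**Figure D5:**
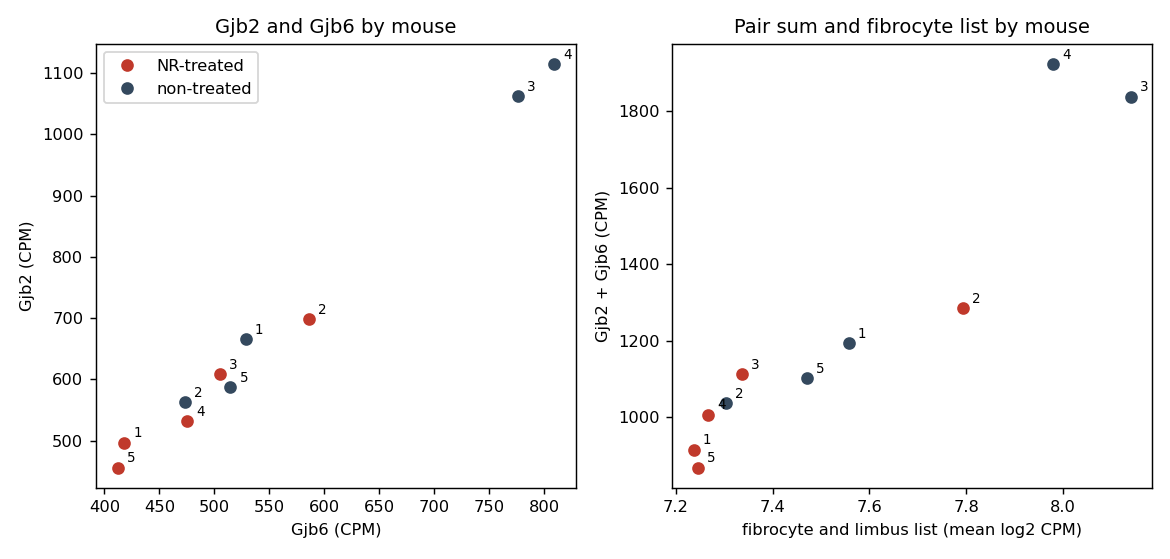
Left: Gjb2 against Gjb6 in CPM for each mouse. Right: the sum of both in CPM against the mean log2 CPM of the 10 fibrocyte and limbus genes; digits are replicate numbers, neither axis starts at 0, and non-treated mice 3 and 4 lie apart at the upper right in both plots, with a sum of 1838 and 1924 CPM against 868 to 1285 CPM in the other 8.

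The stria vascularis, whose basal and intermediate cells are coupled by the same connexins, was counted by cell type. Of 8 genes of intermediate and pigment cells, 5 were lower and 0 higher, with a median of -0.60, and 4 were lower without non-treated mice 3 and 4 (median -0.44). Dct, a melanin enzyme and the most abundant of them, had 237 ± 66.4 against 462 ± 159 CPM. Its groups did not overlap but all but touched: the highest NR-treated mouse had 302.751 CPM and the lowest non-treated mouse 302.766 CPM. In this direction, the groups of 0.878% of all tested genes did not overlap. Of 9 marginal cell genes, 4 were lower with a median of -0.51, led by the potassium, sodium and chloride cotransporter Slc12a2 (443 ± 83.9 against 727 ± 212 CPM), and 1 without those mice (median -0.01). With single mice left out, 2 to 5 marginal cell genes were lower, and 2 without NR-treated mouse 1, 3 or 5 or non-treated mouse 3 or 4. Of 4 basal cell genes, 1 was lower, the tight junction gene Cldn11 (200 ± 17.3 against 269 ± 50.5 CPM). Its groups were apart by a narrow margin, with at most 220 CPM in NR-treated and at least 222 CPM in non-treated mice. The list's median of -0.16 was -0.00 without non-treated mice 3 and 4, where 1 of the 4 was still lower. Leaving out single mice gave 1 to 2 lower. None of these passed an adjusted p of 0.05 in edgeR. Of 6 tested keratinocyte genes of 10 listed, which could bring in the same connexins from skin, 0 were called in either direction, and their sum lay between 22.0 and 30.6 CPM in all mice.

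The glial connexins differed little between the groups. Gjc3, the Cx29 of Schwann cells, measured 70.9, 71.4, 81.6, 71.5 and 72.2 CPM in NR-treated mice and 72.1, 69.3, 64.0, 75.0 and 71.1 CPM in non-treated mice. It was the steadiest abundant member, with an SD over all mice of 0.09 on the log2 scale. Its log2 fold change was 0.06 (SE 0.06, 95% interval -0.06 to 0.19, adjusted edgeR p = 0.725, exact permutation p = 0.349), so an increase above 0.19 or a decrease beyond 0.06 lay outside the interval.

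Gjb1, the Cx32 of myelin, measured 33.3, 22.5, 34.2, 30.7 and 30.4 CPM in NR-treated mice and 27.5, 38.2, 25.3, 26.0 and 29.0 CPM in non-treated mice, and the groups overlapped. Its log2 fold change was 0.05 (SE 0.14, 95% interval -0.25 to 0.35, adjusted p = 0.916). Of 12 Schwann cell genes, 0 were higher and 1, Sox10, the transcription factor of glia and melanocytes, was lower (208 ± 12.4 against 240 ± 35.7 CPM, a call lost with DESeq2 size factors), with a median of 0.10. These counts moved with single mice: 3 were higher without NR-treated mouse 4, 2 were higher without NR-treated mouse 2 or non-treated mouse 1, and 2 were lower without non-treated mouse 1. Without a filter, 2 were higher. The myelin gene Mbp (1925 ± 261 against 1797 ± 250 CPM) was the most abundant of them. The genes whose ratio to Gjc3 varied least were Tmem126b, Chp1, Det1, Kif3b and Capza1, with SDs of 0.04 to 0.06, all steady genes whose own SDs were 0.05 to 0.10.

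Gja1, the Cx43 of astrocytes, fibroblasts and bone cells, measured 54.5, 33.3, 38.4, 42.4 and 43.1 CPM in NR-treated mice and 33.1, 45.0, 36.1, 48.1 and 40.4 CPM in non-treated mice, a log2 fold change of 0.06 (SE 0.14, 95% interval -0.24 to 0.36, adjusted p = 0.895). NR-treated mouse 1 was the highest of all. Of 10 astrocyte genes, a list that includes Gja1, 0 were called, and the median was 0.07. Without non-treated mice 3 and 4 it was 0.27 with 1 gene higher, and 1 was also higher without non-treated mouse 5. Non-treated mouse 1 was lowest on that list, at 4.52 mean log2 CPM against 5.30 to 5.68 in the others. It was also the lowest for Gja1 and for the oligodendrocyte list, of which 1 of 11 tested genes, Sox10, was lower and the median was -0.12. Without that mouse, 6 of the 11 were lower and the median was -0.32. Without non-treated mice 3 and 4, 0 were lower and the median was -0.01. Of 11 bone cell genes, 1 was higher, the collagen gene Col1a1, with a median of 0.16, and 2 were higher without NR-treated mouse 2 or non-treated mouse 1. Of 9 blood genes 0 were called, with a median of -0.09, while 3 were higher without NR-treated mouse 2, and 2 were lower without non-treated mice 3 and 4 (median -0.44).

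Gjd2, the Cx36 of electrical synapses, measured 8.72, 12.8, 7.70, 9.39 and 7.52 CPM in NR-treated mice and 7.20, 11.3, 9.15, 7.94 and 11.4 CPM in non-treated mice. Its log2 fold change was -0.03 (SE 0.18, 95% interval -0.43 to 0.37, adjusted p = 0.973). Of 14 spiral ganglion neuron genes, 2 were higher, 1 was lower and the median was 0.02. With single mice left out, 1 to 4 were higher, lowest without NR-treated mouse 5 and highest without non-treated mouse 5, and 1 to 2 were lower. Of 3 tested genes of central neurons, of 12 listed, 1 was higher, and the list summed to 176 to 247 CPM with NR and 75.7 to 209 CPM without. Exons of Gjd2 share 57 bases (1.98%) with an opposite-strand transcript, A530058N18Rik.

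Gjc1, the Cx45 of vessel wall cells, was the most uniform low gene. It measured 7.71, 7.34, 7.49, 7.51 and 7.81 CPM in NR-treated mice and 7.25, 7.54, 9.06, 7.54 and 7.01 CPM in non-treated mice, and the groups overlapped. Its log2 fold change was -0.02 (SE 0.10, 95% interval -0.24 to 0.20, adjusted p = 0.956). The directions of Gjb1, Gja1, Gjd2 and Gjc1 changed with the mice left out.

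The rest of the family added little signal. Of 11 other connexin genes, 10 were below 0.5 CPM on average and had at most 13 reads in any library. Of the pannexins, relatives that form channels to the outside of the cell, Panx1 had 15.9 ± 1.86 against 15.1 ± 2.68 CPM (log2 fold change 0.08, SE 0.13) and Panx2 had 132 ± 6.33 against 135 ± 26.3 CPM (-0.03, SE 0.12). Of 10 partners that bind, traffic or degrade connexins, such as the scaffold Tjp1 and the ubiquitin ligase Nedd4, 0 were called and the median was -0.02, and 1 was lower without NR-treated mouse 2 or non-treated mouse 1 or 2. Of 11 transcription factors that regulate connexins in the ear or in vessels, 2 were lower, Tbx2 (129 ± 16.4 against 177 ± 32.7 CPM) and Sox10, and 0 were higher. Without non-treated mice 3 and 4, 1 was lower and 2 were higher. With DESeq2 size factors 1 was lower and 1 higher, and with single mice left out 1 to 2 were lower and 0 to 1 higher.

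The epithelial and the arterial pair were also set against each other within each mouse. The sum of Gjb2 and Gjb6 was 68.3 to 197 times the sum of Gja4 and Gja5 (CPM) in the NR-treated group and 137 to 269 times in the non-treated group. NR-treated mouse 2, which had the most Gjb2 and Gjb6 and the least Gja4 and Gja5 of its group, gave 197, and the other 4 NR-treated mice gave 68.3 to 102, below every non-treated mouse. The genes whose ratio to Gja4 varied least, Tagap, Mdk, Id1, Jak3 and Csf2ra, had SDs of 0.13 to 0.17 beside an SD of 0.31 of Gja4 itself. Gja5 was below the 5 CPM that a gene had to reach to be considered.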

How the data were processed

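RNA-seq of whole cochlea was analysed from 5 NR-treated and 5 non-treated mtKeima mice, grouped by the sample titles. The values the authors deposited are raw read counts per gene, 1 file per mouse, made by Novogene from poly-A libraries. Per the labels and methods, STAR 2.6.1d aligned reads to mm10 (2 mismatches) and featureCounts 1.5.0 counted them with default settings; the annotation release is not given in the sources used here. Coordinates and lengths of the 9 genes in the files equal those of GENCODE M21.

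The 18329 genes kept by filterByExpr were tested with edgeR 4.0.16 (R 4.3.3; TMM, glmQLFit, glmQLFTest, no covariate), with Benjamini-Hochberg adjustment over all of them. CPM are TMM-scaled, RPKM are CPM per kilobase, and list levels are mean log2 CPM with a prior count of 2. Intervals cover 95%. DESeq2 1.42.0, other scalings and filters, the robust fit, a replicate block and left-out mice were alternatives. Permutation tests of mean CPM were exact and two-sided. Scripts were tested on simulated data, and no 2 libraries were alike within counting noise. Library depth limits Gja5, with 13 to 78 reads per mouse.

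The genes and the 24 marker and family lists were chosen with earlier results of these data known. Named were the 9 genes, relatives of at least 0.5 CPM, the 5 genes of at least 5 CPM closest in log2 ratio to Gjb2, Gjc3 and Gja4, and per list the 2 most abundant genes and that with the smallest p in each direction, except some genes not reported here. The files do not say whether mice shared litters or cages.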

Additional observations from a re-analysis of the deposited data

Results flagged for a closer look

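Each gene's 5 values per group, 18 groups in all, were screened with Dixon's test at its 95% critical value, which chance passes in about 1 group in 20, and 3 groups passed. Gjc3 was 81.6 CPM in NR-treated mouse 3, far above the other 4 NR-treated mice at 70.9 to 72.2 CPM. Gjb1 was 38.2 CPM in non-treated mouse 2, above the rest of its group at 25.3 to 29.0 CPM. Gjc1 was 9.06 CPM in non-treated mouse 3, above 7.01 to 7.54 CPM in the rest of its group.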

How the results depend on the processing

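No gene passed an adjusted p of 0.05 in edgeR under any scaling, filter, robust or block setting, while DESeq2 called 102, and leaving out single mice gave 0 to 1 (Oscar, without NR-treated mouse 2, a gene named after its values were seen). The number of genes at an unadjusted p under 0.05 was 1153 to 2440 with single mice left out, lowest without NR-treated mouse 3 and highest without NR-treated mouse 2, and 1118 without NR-treated mice 3 and 5 and non-treated mouse 1, a setting added after seeing the data. Of the 1780 such genes, 886 were higher and 894 lower. The split was 1116 and 664 with upper quartile scaling, 1414 and 1066 without a filter, and 905 and 696 with at least 1 CPM in 5 samples. The connexins called at an unadjusted p under 0.05 numbered 1 to 4 with single mice left out, and 1, Gja5, without non-treated mice 3 and 4 and also without NR-treated mice 3 and 5 and non-treated mouse 1. With DESeq2 size factors in edgeR, upper quartile scaling or the CPM filter they were Gjb2 and Gja5. Gja5 was called by DESeq2 at an adjusted p of 9.45e-04, and its adjusted p in the edgeR settings was 0.139 to 0.807.

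The labels do not state whether the replicate numbers pair the mice. Deviations of same-numbered mice correlated between -0.22 and 0.17, over 0.1 in 2 of 5 pairs, which cannot decide it. With the replicate number as a block, 1655 genes had an unadjusted p under 0.05, 0 an adjusted one, and 2 connexins (Gjb2 and Gja5) were called.

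Small differences changed sign. Gjb1 was -0.057 without non-treated mice 3 and 4 and -0.028 without NR-treated mice 3 and 5 and non-treated mouse 1, where Gjd2 was 0.061. Gjc1 was 0.064 without non-treated mice 3 and 4. With single mice left out, Gja1 lay between -0.037 and 0.15, Gjd2 between -0.17 and 0.061, and Gjc1 between -0.053 and 0.059. The cause of these changes was not tested. At 13 to 78 reads per mouse, Gja5 has the least depth of the 9.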
